A study of Mus musculus with 6 samples.

Results

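The sodium pump (Na,K-ATPase) genes described here are 8 genes of the mouse intervertebral disc (IVD): the regulators Fxyd1, Fxyd2, Fxyd3, Fxyd5 and Fxyd6, and the beta subunits Atp1b1, Atp1b2 and Atp1b3. They were chosen by gene family and from the measured difference between mutant and control libraries, so their fold changes between those groups are given as a description and carry no test. All 8 have a row among the 43472 gene symbols counted, and all 8 were among the 16152 genes with enough counts to be tested. The libraries are 6 pools of whole IVDs of C57B6/J mice at postnatal day 20, each pool from 2 to 3 mice, with 3 pools per group. In the mutant group (Col2Cre;Adgrg6 f/f), Cre under a type II collagen promoter removes the adhesion G protein-coupled receptor Adgrg6 throughout the disc from embryonic development on. The same Cre also acts in the periosteum and the bone of the vertebral body. The control group is wild type by its genotype label, Col2Cre control by its titles and Cre(-) littermates by the results section of the study. These descriptions do not say the same about the presence of Cre or of the floxed alleles.

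The sodium pump moves sodium out of the cell and potassium in at the cost of ATP, and so sets the ion gradients that drive sodium-coupled transport and that hold cell volume. A working pump joins a catalytic alpha subunit to a beta subunit, which brings the complex to the membrane and shapes its affinity for potassium. Fxyd proteins are small single-span membrane proteins, named for a conserved FXYD motif, that bind the assembled pump and adjust its affinity for sodium and potassium in a tissue-specific way. Disc and cartilage cells live in a matrix whose fixed negative charge holds sodium at a high and load-dependent concentration, so that ion and water balance is a constant task of these cells.

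The files held between 9061491 and 12017008 counts on genes per library, and values are given as CPM, a gene's counts per 1000000 counts on genes, after trimmed-mean (TMM) scaling of the library totals. Whole-gene counts of Adgrg6, listed under its older symbol Gpr126, were 109 ± 14.7 CPM in control and 122 ± 16.1 CPM in mutant libraries (SD, n = 3 each), and counts over a whole gene do not check a deletion of part of it. Cartilage collagen Col2a1 ranged from 62710 to 124100 CPM over the 6 libraries, and the nucleus pulposus factor T from 130 to 450 CPM, whereas Noto, another gene of that tissue, had counts in only 1 library. Skeletal muscle markers, 8 genes, summed to 4288 CPM in control 1 and to 76.5 to 172.6 CPM in the other 5 libraries, so control 1 stands apart. Control 3 held the largest share of counts on genes that average under 1 CPM, 0.586% against 0.152% to 0.342% in the other libraries.

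**Figure D1:**
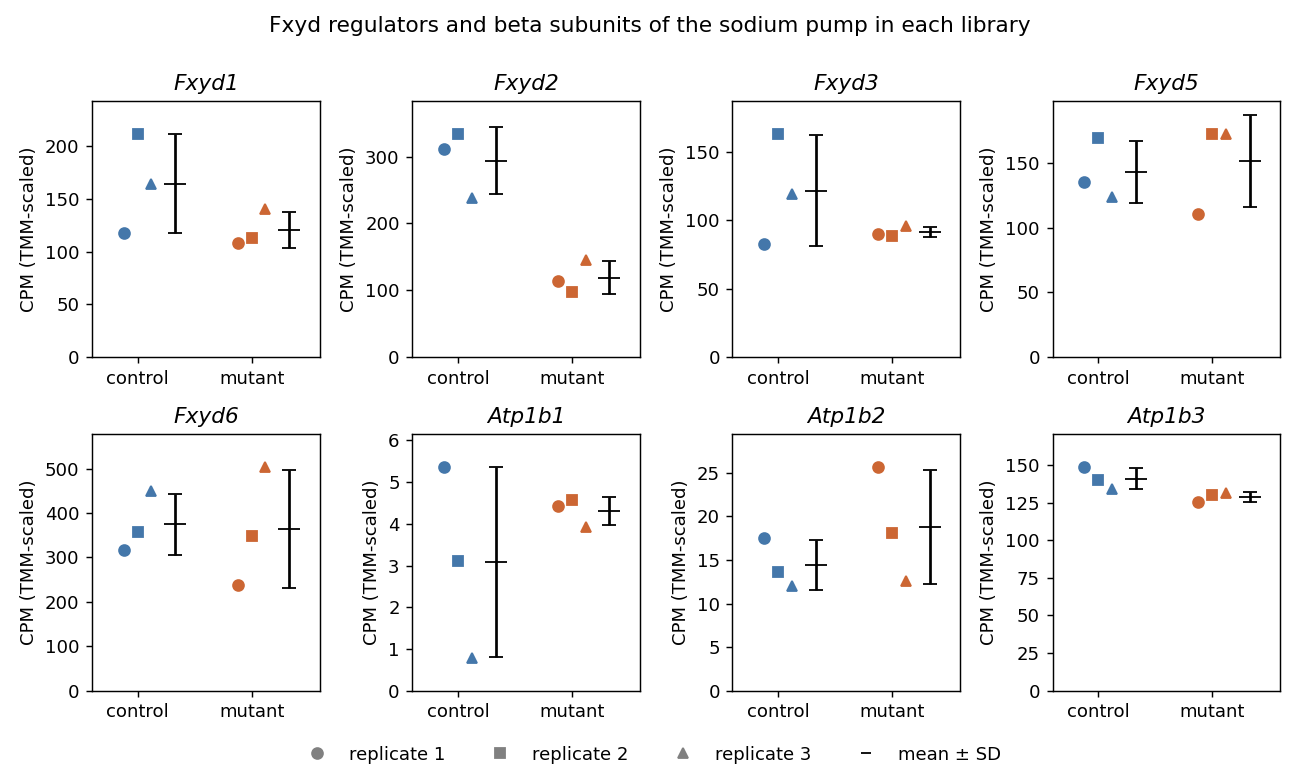
Each panel plots 1 gene in CPM (linear axis from 0) for the 3 control (blue) and 3 mutant (orange) libraries, with the replicate number as the symbol and the group mean ± SD as the bar. Fxyd2 lies between 238 and 334 CPM in control and between 97.2 and 146 CPM in mutant libraries, whereas the groups overlap for Fxyd1, Fxyd3, Fxyd5, Fxyd6, Atp1b1 and Atp1b2.

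Expressed per kilobase of the union of a gene's exons, the level of Fxyd6 came first in control discs at 91.2 ± 16.6 CPM per kb, followed by Fxyd1 at 75.1 ± 21.5, Fxyd2 at 73.4 ± 12.5 and Atp1b3 at 59.0 ± 3.01 CPM per kb (SD, n = 3). The ranges of neighbours in this order overlap, so adjacent places are not resolved by 3 libraries, while the range of Fxyd6 lies above that of Atp1b3. Fxyd5 at 34.1 ± 5.74 and Fxyd3 at 25.1 ± 8.32 CPM per kb formed a lower tier whose ranges also overlap. Atp1b2 at 3.52 ± 0.702 and Atp1b1 at 1.0 ± 0.742 CPM per kb came last, and their ranges do not overlap each other or those above. In mutant discs Fxyd6 was again first at 88.4 ± 32.4 CPM per kb and the pair Atp1b2 and Atp1b1 again last, while Fxyd2 stood in place 5 at 29.7 ± 6.18 CPM per kb, with a range that overlaps that of Fxyd5 at 36.2 ± 8.52. With the longest transcript as the length, Fxyd1 led in controls at 246 CPM per kb before Fxyd2 at 174 and Fxyd6 at 159, so the order within the upper tier depends on which transcripts the discs use, and the 3 beta subunits kept their order. Atp1b3 was thus the leading beta subunit transcript of these discs under both lengths.

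Fxyd2, the gamma subunit best known from the kidney tubule, lies at chr9:45399669-45410278 on the plus strand of GRCm38. Its level was 311, 334 and 238 CPM in control replicates 1, 2 and 3, and 113, 97.2 and 146 CPM in mutant replicates 1, 2 and 3. Every mutant library was below every control library, with a wide gap between the lowest control and the highest mutant value. The means were 294 ± 50.1 CPM in control and 119 ± 24.7 CPM in mutant libraries (SD, n = 3 each), a log2 fold change of -1.31 (SE 0.22). Leaving out 1 library at a time gave log2 fold changes from -1.48 to -1.17. These RNAs come from whole discs, so fewer cells that hold a transcript and less of that transcript per cell cannot be told apart.

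The summed level of markers of prehypertrophic and hypertrophic chondrocytes, the maturing cells of the endplate and growth plate, was lower in the same libraries. The 5 markers of this list (Ihh, Col10a1, Pth1r, Panx3 and Mef2c), all detected, summed to 2168, 1490 and 1146 CPM in control replicates 1, 2 and 3 and to 999.8, 855 and 818.5 CPM in mutant replicates 1, 2 and 3. The ranges of this sum do not overlap between the groups, as for Fxyd2. Gene by gene, Ihh, Pth1r and Panx3 do not overlap either, whereas Col10a1 (226 to 640 CPM in control and 116 to 328 CPM in mutant libraries) and Mef2c (85.3 to 139 and 59.4 to 96.95 CPM) do. Per library, Fxyd2 was equal to 14.3%, 22.4% and 20.7% of the marker sum in controls and to 11.3%, 11.4% and 17.8% in mutants, so the ratio overlaps between groups where Fxyd2 itself does not. The part of these cells in the Fxyd2 difference was not tested.

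**Figure D2:**
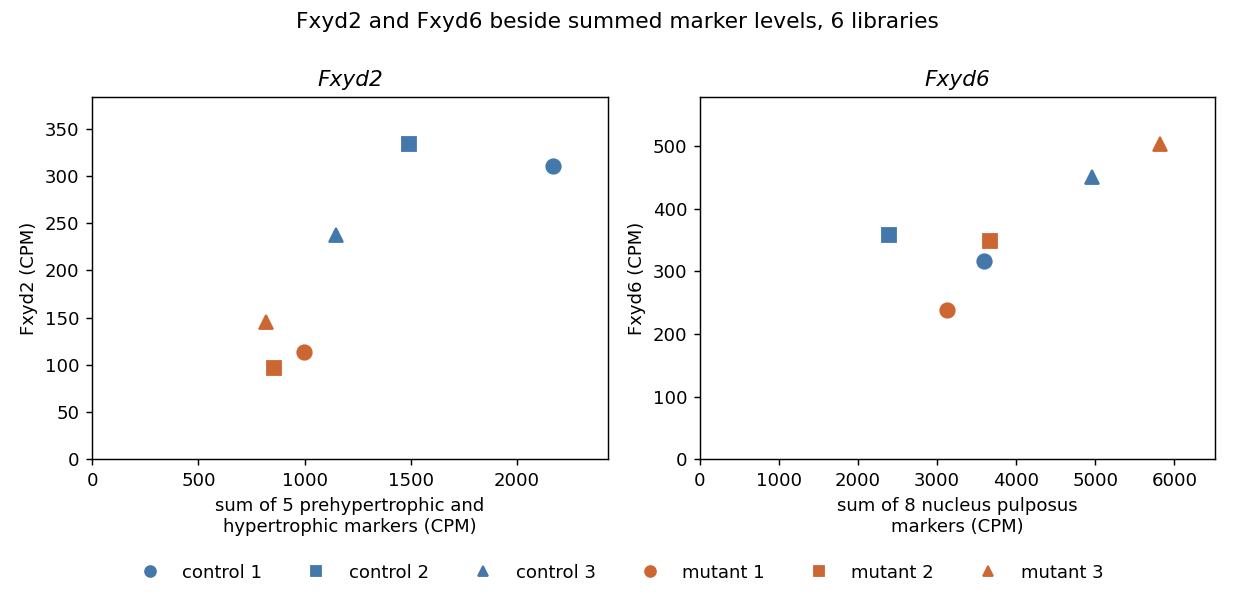
Each point is 1 library (control blue, mutant orange). The left panel plots Fxyd2 (CPM) against the summed CPM of 5 prehypertrophic and hypertrophic markers, with the 3 mutant libraries at the lower left, and the right panel plots Fxyd6 (CPM) against the sum of 8 nucleus pulposus markers, with control 3 and mutant 3 highest on both axes.

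The genes whose levels followed Fxyd2 most closely over the 6 libraries were found by the root mean square distance of their centred log2(CPM + 0.5) values, among 12231 genes of at least 5 CPM on average. Since Fxyd2 differs between the groups, genes near it differ between the groups too, and the list is a description without a test. The nearest 8 were Rspo4, an R-spondin that enhances Wnt signalling (distance 0.097), Ihh, the hedgehog ligand of prehypertrophic chondrocytes (0.16), the cytokine Il17b (0.25), the kinase Alpk2 (0.25), the sodium-citrate cotransporter Slc13a5 (0.28), the cGMP-dependent kinase Prkg2 of growth plate chondrocytes (0.28), the protease Prss50 (0.30) and the zinc finger gene Zswim3 (0.30). Rspo4 was measured at 26.4, 32.1 and 20.4 CPM in control and 9.10, 8.81 and 11.3 CPM in mutant replicates 1, 2 and 3. Ihh stood at 188, 189 and 112 CPM in control and 63.3, 47.7 and 63.6 CPM in mutant replicates. As with Fxyd2, control 3 was the lowest control for both genes. Among the other Fxyd and beta subunit genes compared with it, Fxyd1 was the closest to Fxyd2, at rank 375.

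Fxyd1 (phospholemman), the regulator of the pump in heart and skeletal muscle, lies at chr7:31051678-31057199 on the minus strand. Its level was 117, 211 and 164 CPM in control and 108, 113 and 140 CPM in mutant replicates 1, 2 and 3. The highest values were those of controls 2 and 3, and control 1 lay within the mutant range. The means of 164 ± 46.9 and 120 ± 17.4 CPM (SD, n = 3 each) correspond to a log2 fold change of -0.45 (SE 0.23), which became -0.23 without control 2 and -0.62 without control 1. Control 1, with by far the highest sum of muscle markers, had the lowest Fxyd1 level of the controls.

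Fxyd3 (Mat-8), an Fxyd protein first described in mammary tumours, is found at chr7:31068172-31076704 on the same strand, 10972 bases from Fxyd1. It was measured at 82.5, 163 and 120 CPM in control and at 90.0, 88.5 and 95.7 CPM in mutant replicates 1, 2 and 3. The control libraries spread on both sides of the mutant ones, which lay close together. The means were 122 ± 40.3 and 91.4 ± 3.79 CPM (SD, n = 3 each), a log2 fold change of -0.41 (SE 0.24) that was -0.61 without control 1 and -0.15 without control 2.

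The profiles of Fxyd1 and Fxyd3 were alike across the libraries, with control 2 highest and control 3 next in both genes. By the same distance Fxyd3 took rank 4 among 12231 genes for likeness to Fxyd1, and Fxyd1 rank 5 for likeness to Fxyd3, at 0.098. The counts of Fxyd3 over those of Fxyd1 held between 0.683 and 0.833 in the 6 libraries. Fxyd5 and Fxyd7, of the same row of genes on chromosome 7, are separated from each other by 31 bases and Fxyd7 from Fxyd1 by 210 bases, and Fxyd5 stood only at rank 2799 for likeness to Fxyd1.

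Counts of Fxyd3 carry an uncertainty of their own. Lgi4, a secreted protein of Schwann cell development, lies on the opposite strand at chr7:31059342-31070935, and its exons overlap 2059 bases or 42.5% of the exon bases of Fxyd3. Lgi4 was the gene nearest of all to Fxyd3, at a distance of 0.042. The ratio of Fxyd3 to Lgi4 counts lay between 1.02 and 1.11 in all 6 libraries, with 6547 counts on Fxyd3 and 6214 on Lgi4 over the libraries together. The strand setting of the counting is not given in the sources used here. Between 40.4% and 44.2% of the reads entered fell on genes, 39.4% to 43.3% on no feature and 0.846% to 1.05% were set aside as ambiguous. Without the strand, reads of Fxyd3 and of Lgi4 over the shared bases cannot be told apart, and the values of Fxyd3 are to be read as uncertain. The same holds for the likeness of Fxyd3 to Fxyd1, since Lgi4 itself took rank 7 for likeness to Fxyd1, at 0.105. Fxyd1 has no exon bases in common with Lgi4, which starts 2142 bases from it.

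**Figure D3:**
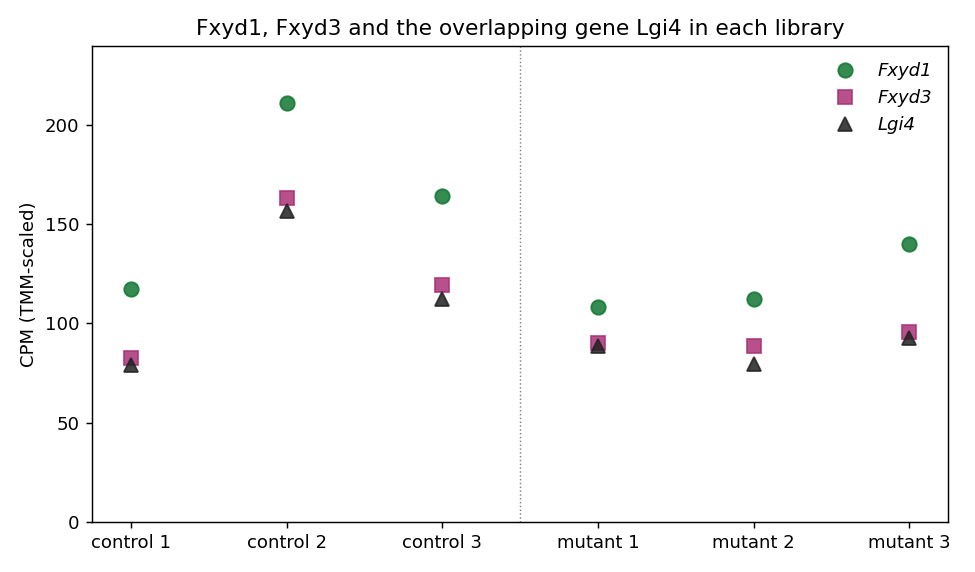
The plot gives the level in CPM (linear axis from 0) of Fxyd1, Fxyd3 and Lgi4, the gene on the opposite strand that overlaps Fxyd3, in each of the 6 libraries. Fxyd3 and Lgi4 almost coincide in every library, and Fxyd1 is higher than both throughout, with the same order of the 3 controls and its highest value in control 2 at 211 CPM.

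Promoter sequences are shown for Fxyd1 and Fxyd3, whose measured levels moved together, though those of Fxyd3 are uncertain. Promoters are also shown for Fxyd6, the neighbour of Fxyd2, and for Atp1b3, the leading beta subunit, whose promoter differs in composition. They are the 250 bases before a transcript start, from RefSeq on GRCm38.p6, 5′ to 3′ on the gene's own strand, with matches to the searched motifs in capitals (as the reverse complement where the match is on the other strand). An entry was found for 6 of the 8 genes, with 7 promoters in all, and not for Fxyd2 and Atp1b2. Fxyd1 is read from chr7:31054854-31055103 (minus), Fxyd3 from chr7:31076698-31076947 (minus), Fxyd6 from chr9:45369935-45370184 (plus) and Atp1b3 from chr9:96364432-96364681 (minus).
Fxyd1: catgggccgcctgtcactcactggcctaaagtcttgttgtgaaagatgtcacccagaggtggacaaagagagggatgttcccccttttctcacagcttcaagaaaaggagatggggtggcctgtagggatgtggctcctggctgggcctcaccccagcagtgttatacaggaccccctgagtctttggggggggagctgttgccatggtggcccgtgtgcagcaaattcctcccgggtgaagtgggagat
Fxyd3: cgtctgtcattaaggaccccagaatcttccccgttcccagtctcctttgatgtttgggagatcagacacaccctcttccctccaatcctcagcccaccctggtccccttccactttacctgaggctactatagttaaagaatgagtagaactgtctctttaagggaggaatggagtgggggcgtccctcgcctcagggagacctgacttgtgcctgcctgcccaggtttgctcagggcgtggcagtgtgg
Fxyd6: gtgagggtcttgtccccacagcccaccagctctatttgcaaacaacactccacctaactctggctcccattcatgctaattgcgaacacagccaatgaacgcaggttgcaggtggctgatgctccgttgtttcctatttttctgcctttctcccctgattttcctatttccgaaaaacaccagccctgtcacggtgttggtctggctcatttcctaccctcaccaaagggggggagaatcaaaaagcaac
Atp1b3: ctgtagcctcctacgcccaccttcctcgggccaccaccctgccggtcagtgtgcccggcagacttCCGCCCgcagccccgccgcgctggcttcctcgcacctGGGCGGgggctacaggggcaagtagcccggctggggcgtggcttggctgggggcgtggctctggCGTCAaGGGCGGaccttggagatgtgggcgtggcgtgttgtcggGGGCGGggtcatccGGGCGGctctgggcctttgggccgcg

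The motifs searched on both strands were the cyclic AMP response element TGACGTCA, the shorter TGACG that the full element contains, the core TGGAAA bound by the osmotic stress factor Nfat5, the GC box GGGCGG and the TATA box TATAAA. None of the 5 motifs was found in the windows of Fxyd1, Fxyd3, Fxyd5 or Fxyd6. Of the Fxyd5 window, 219 bases are exon bases of Fxyd5 or Fxyd7 in GENCODE M21, so it is largely transcribed sequence, and the Fxyd1 window lies inside the annotated Fxyd1 gene, with 0 exon bases. The GC box was present in the printed Atp1b3 promoter and in that of Atp1b1, so in 2 of 7 promoters, against 32.7% of all 32851 promoters of this length. The printed Atp1b3 promoter also holds TGACG, found in 17.8% of all promoters, and its second promoter holds TGGAAA, found in 18.6%. The full cyclic AMP response element (1.55% of all promoters) and the exact letters TATAAA (12.4%) were in none of the 7. Variants of these letters were not searched. GC content was 50.4% for Fxyd6, 55.2% for Fxyd3, 55.6% for Fxyd5 and 57.2% for Fxyd1, near the median of all promoters at 52.4%, whereas it reached 70.4% for Atp1b1 and 73.6% and 76.8% for the Atp1b3 promoters. A match is a run of letters only, and its absence says nothing of a factor.

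Fxyd5 (dysadherin), which in epithelia affects cell adhesion as well as the pump, lies at chr7:31032722-31042481 on the minus strand. It was measured at 135, 170 and 123 CPM in control and at 110, 172 and 172 CPM in mutant replicates 1, 2 and 3. The groups overlap, with mutant 1 the lowest of all libraries. Its log2 fold change was 0.088 (SE 0.22), and 0.31 without mutant 1.

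Fxyd6 (phosphohippolin), known from brain and inner ear, is the neighbour of Fxyd2 at chr9:45370185-45396159 on the plus strand and ends 3509 bases before Fxyd2 begins. Its level was 317, 357 and 450 CPM in control and 238, 349 and 503 CPM in mutant replicates 1, 2 and 3. The lowest and the highest library were both mutant ones. The means of 374 ± 68.3 and 363 ± 133 CPM (SD, n = 3 each) gave a log2 fold change of -0.044 (SE 0.28), with the same sign in 9 of 12 alternative analyses, and 0.22 without mutant 1 against -0.34 without mutant 3. The counts of Fxyd6 over those of its neighbour Fxyd2 were 1.02, 1.07 and 1.89 in control and 2.10, 3.59 and 3.45 in mutant replicates 1, 2 and 3.

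Fxyd6 was highest in both libraries with the largest sum of nucleus pulposus markers, control 3 and mutant 3. The 8 markers of that tissue, all with counts in at least 1 library, summed to 3594, 2397 and 4960 CPM in control and 3130, 3666 and 5823 CPM in mutant replicates 1, 2 and 3. The Fxyd6 level, which is not in that sum, was equal to 7.60% to 9.52% of it in 5 libraries and to 14.9% in control 2. Car3 was the largest part of the sum, with 2737 CPM in control 3 and 3520 CPM in mutant 3. Gene by gene, Car3, Krt8, Krt18 and Krt19 were highest in these libraries, whereas T, Cd24a and Shh were not. T stood at 373 CPM in mutant 1 against 310 CPM in control 3. Cd24a (321 against 289.5 CPM) and Shh (2.39 against 1.49 CPM) were higher in mutant 1 than in mutant 3. The part of the nucleus pulposus content in the spread of Fxyd6 was not tested.

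Among the counts on the 5 Fxyd genes, the share of Fxyd2 was 32.3%, 27.0% and 21.7% in control and 17.2%, 11.9% and 13.8% in mutant replicates 1, 2 and 3. The shares do not overlap, and their means of 27.0 ± 5.28% and 14.3 ± 2.68% (SD, n = 3 each) differ by -12.7 percentage points. The difference in this share comes from the same contrast that chose the genes. Fxyd5 took 13.0 ± 1.53% in control and 18.0 ± 2.60% in mutant libraries, and Fxyd6 34.3 ± 6.21% and 42.1 ± 5.77%. Since the shares of a library add to the whole, a lower share of Fxyd2 goes with higher shares elsewhere. In CPM the control and mutant means were 143 and 152 for Fxyd5 and 374 and 363 for Fxyd6. Fxyd1 and Fxyd3 kept nearly equal mean shares, at 14.8 ± 2.47% and 14.5 ± 1.69% for Fxyd1 and at 10.9 ± 2.32% and 11.2 ± 2.32% for Fxyd3. These shares are of counts and not per length, so they compare libraries and not genes. Summed, the 5 genes had 1097 ± 136 CPM in control and 845 ± 199.8 CPM in mutant libraries, and without Fxyd2 the other 4 had 803 ± 133 and 727 ± 182 CPM.

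**Figure D4:**
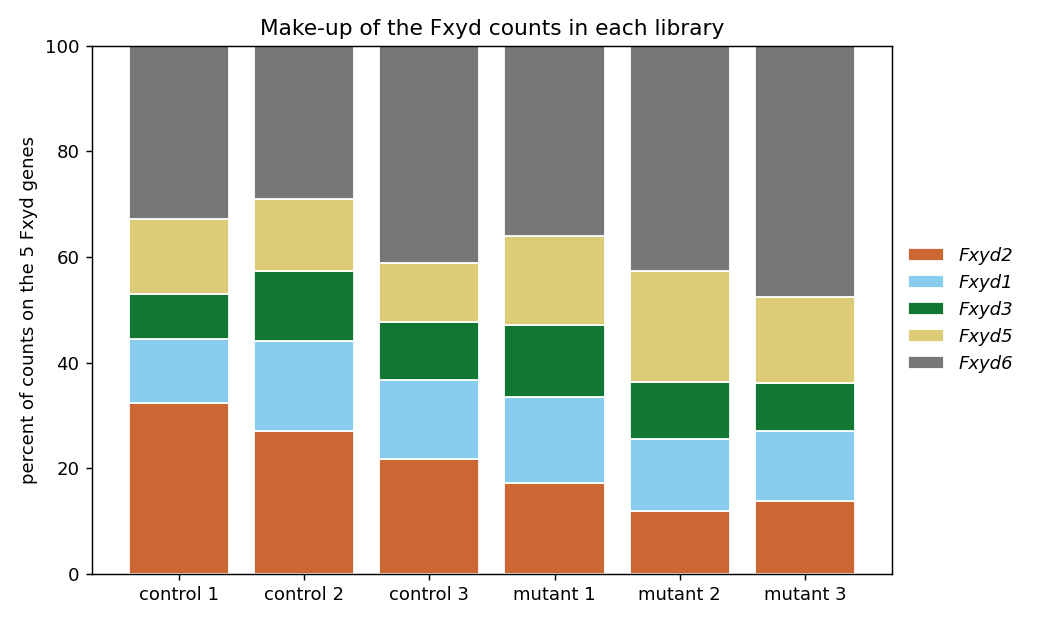
Stacked bars give, for each of the 6 libraries, the percent of the counts on the 5 Fxyd genes that each gene holds, adding to the whole. Fxyd2, at the base of each bar, spans 21.7% to 32.3% in control and 11.9% to 17.2% in mutant libraries.

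Atp1b3, a widely expressed beta subunit also known as CD298, lies at chr9:96332655-96364442 on the minus strand. It stood at 148, 140 and 134 CPM in control and at 125, 130 and 131 CPM in mutant replicates 1, 2 and 3. The mutant libraries were all below the control ones, by a narrow margin between control 3 and mutant 3. The means of 141 ± 7.19 and 129 ± 3.26 CPM (SD, n = 3 each) gave a log2 fold change of -0.13 (SE 0.16). This value became -0.069 without control 1, -0.072 without mutant 1 and -0.24 with library totals alone. Of the counts on the 3 beta subunits, Atp1b3 held 89.1 ± 2.35% in control and 84.9 ± 4.09% in mutant libraries.

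Atp1b2, the beta subunit first described as an adhesion molecule on glia, lies at chr11:69599736-69605942 on the minus strand. Its level was 17.6, 13.7 and 11.96 CPM in control and 25.6, 18.1 and 12.6 CPM in mutant replicates 1, 2 and 3. The groups overlap, and mutant 1 was the highest library. Its log2 fold change was 0.39 (SE 0.28), and it was 0.14 without mutant 1 and 0.61 without mutant 3. The 8 markers of glia and myelin, all with counts, summed to 219.6, 1651 and 575 CPM in control and 3568, 2490 and 903 CPM in mutant replicates 1, 2 and 3, with mutants 1 and 2 highest as for Atp1b2 and control 1, in place 3 for Atp1b2, lowest. Their part in the Atp1b2 values was not tested.

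Atp1b1, the main beta subunit of most epithelia, lies at chr1:164437109-164458355 on the minus strand and was scarce in these discs. It had 50, 28 and 10 counts in control and 39, 56 and 37 counts in mutant replicates 1, 2 and 3. In CPM these are 5.35, 3.11 and 0.782 in control and 4.44, 4.57 and 3.93 in mutant libraries. The exact 95% Poisson interval of control 3, 0.375 to 1.44 CPM, lies below those of the other 5 libraries, of which the lowest begins at 2.07 CPM (intervals of counting error only). The log2 fold change of 0.50 (SE 0.60) rested on it and became 0.038 without control 3 and 1.20 without control 1. Nme7 on the opposite strand shares 575 exon bases with Atp1b1, 18.7% of its exon bases, and had 1067 counts over the 6 libraries against 220 on Atp1b1, which leaves the Atp1b1 counts uncertain too. The 3 beta subunits together summed to 158 ± 12.3 CPM in control and 152 ± 3.66 CPM in mutant libraries (SD, n = 3 each).

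**Figure D5:**
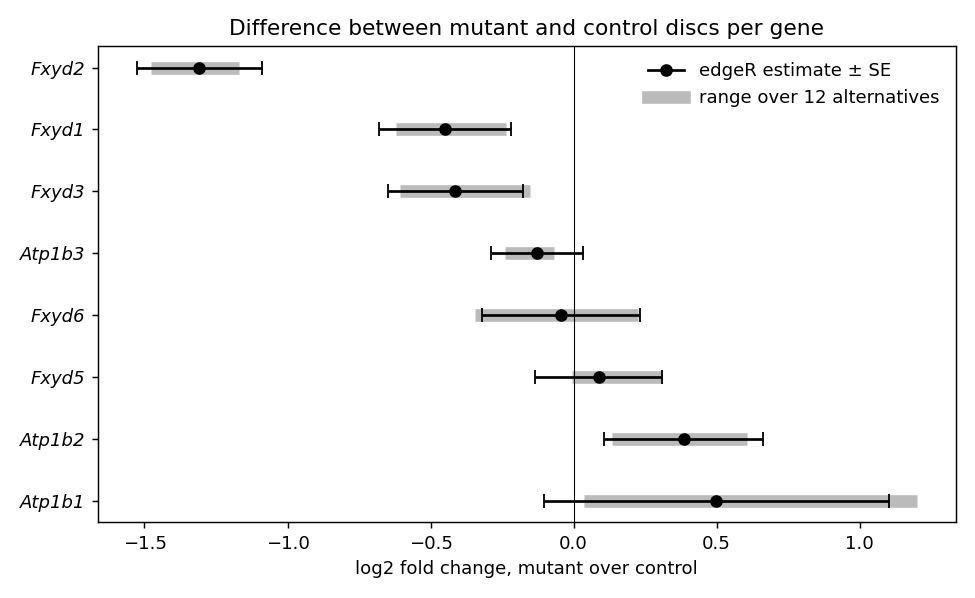
Points give the log2 fold change of mutant over control for each of the 8 genes (horizontal axis), black bars the SE of the edgeR estimate and grey bands the range over 12 alternative analyses. Fxyd2 lies at -1.31, apart from the other 7 genes, which lie between -0.45 and 0.50.

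Counted over the 8 genes, 1 (Fxyd2) had an unadjusted p under 0.05 in edgeR's quasi-likelihood test, where 7.21% of all tested genes did. None had an adjusted p under 0.05 in that test, which 0.00619% of all genes had. DESeq2 gave an adjusted p under 0.05 for 1 of the 8, Fxyd2, and for 52 of all genes. With limma-voom, run with quality weights on the libraries, there were 0 of the 8 and 0 of all genes. Separation of the groups with every mutant library lower was seen for 2 (Fxyd2 and Atp1b3), against 5.96% of all genes, and with every mutant library higher for 0, against 5.45%. Since the genes were chosen on this contrast, nothing is read from these counts. In all, 5 genes had a log2 fold change below 0 and 3 above, with a median of -0.086 beside -0.013 over all 16152 genes.

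Relatives of the pump genes were taken from a list of 10: Fxyd4 and Fxyd7, the muscle gene Atp1b4, the pump-interacting proteins Nkain1 to Nkain4, and the proton-potassium pump genes Atp4a, Atp4b and Atp12a. Of these, 5 had enough counts for a test, 2 had an unadjusted p under 0.05, both lower in mutants, beside 7.21% of all tested genes. In edgeR's test and in DESeq2 0 had an adjusted p under 0.05, beside 1 and 52 of all genes. Without the filter on low counts edgeR gave 2, Nkain2 and Nkain3, beside 245 of all genes. The median log2 fold change of the 5 was -0.58, beside -0.013 over all genes. This median became -0.38 without control 3 and -0.905 without mutant 3, and was -1.03 over all 10 with no filter on low counts. Fxyd7, known from neurons, was level at 9.13 ± 1.07 CPM in control and 9.22 ± 0.788 CPM in mutant libraries (SD, n = 3 each). Fxyd4 reached at most 0.938 CPM, and Atp4a, Atp4b and Atp12a at most 0.625 CPM in any library. Atp1b4 had 23 counts in control 1, the library with the high muscle sum, and at most 4 in any other.

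The lower pair among these relatives was Nkain2 and Nkain3, brain-enriched proteins that bind the pump's beta subunit. Nkain2 stood at 5.99, 19.2 and 40.2 CPM in control and 6.60, 10.6 and 10.2 CPM in mutant replicates 1, 2 and 3 (log2 fold change -1.26, SE 0.53). Nkain3 stood at 1.61, 9.77 and 17.6 CPM in control and 0.910, 3.92 and 3.19 CPM in mutant replicates (log2 fold change -1.84, SE 0.74). Control 1 was as low as the mutant libraries for both. Over the 12 alternatives the log2 fold change ran from -1.68 to -0.45 for Nkain2 and from -2.31 to -1.06 for Nkain3. Neither kept an unadjusted p under 0.05 without control 2, control 3, mutant 1 or mutant 3, nor did Nkain2 without mutant 2, and both lost it with limma-voom. The share of counts on scarce genes was 0.167%, 0.342% and 0.586% in control and 0.152%, 0.205% and 0.193% in mutant replicates 1, 2 and 3. Nkain3 stood in the order of this share over all 6 libraries, and so did Nkain2 but for control 1 and mutant 1, which changed places, so the difference between the groups goes with it. Its part in these values was not tested.

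The sodium gradient that the pump maintains is used by channels and cotransporters, of which a list of 29 was examined. Of 21 tested, 4 were lower (Slc9a2, Slc4a5, Slc13a5 and Slc38a4) and 2 higher (Slc38a1 and Slc1a4) at an unadjusted p under 0.05, beside 7.21% of all tested genes. In edgeR's test 0 had an adjusted p under 0.05, against 1 (Slc13a5) in DESeq2 and 2 (Slc13a5 and Scnn1g) in edgeR without the filter on low counts. Over all genes these fits gave 1, 52 and 245. The median log2 fold change of the list was -0.16. This median became -0.496 without mutant 2, -0.073 without mutant 1 and -0.074 without control 1. Slc13a5, which imports citrate with sodium and is one of the genes nearest to Fxyd2, was measured at 117, 111 and 87.5 CPM in control and 55.3, 52.6 and 46.6 CPM in mutant replicates 1, 2 and 3. The groups do not overlap, and its log2 fold change was -1.03 (SE 0.18) with an edgeR adjusted p of 0.373, which ranged from 0.0012 to 0.866 over the alternatives. Of the neutral amino acid carriers, Slc38a1 stood at 59.9 ± 10.6 CPM in control and 86.3 ± 7.14 CPM in mutant libraries (log2 fold change 0.53, SE 0.18), and Slc1a4 at 34.6 ± 6.05 and 52.1 ± 3.31 CPM (0.59, SE 0.17). Slc38a4, another amino acid carrier, went the other way at 19.2 ± 5.08 and 12.5 ± 0.893 CPM (log2 fold change -0.61, SE 0.23). Its log2 fold change ranged from -0.73 to -0.35 over the alternatives. The sodium-proton exchanger Slc9a2 had 12 to 32 counts in control and 1 to 3 in mutant libraries, and the sodium-bicarbonate carrier Slc4a5 18 to 51 and 8 to 12. Among these 6 genes, the unadjusted p passed 0.05 for Slc38a1 without control 2, control 3 or mutant 3, for Slc38a4 without control 1, mutant 1 or mutant 2 and with limma-voom, and for Slc4a5 in all but 3 of 12 alternatives. The cotransporter Slc12a2, which brings in sodium with potassium and chloride, had 126 ± 54.4 CPM in control and 140 ± 27.0 CPM in mutant libraries.

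Genes of osmotic and mineralocorticoid control, which act on pump and channel abundance in other tissues, were examined as a list of 26. Of 19 tested, 0 were lower and 2 higher (Aqp1 and Sgk1) at an unadjusted p under 0.05, a share near the 7.21% of all tested genes. In edgeR's test 0 had an adjusted p under 0.05, against 1 (Aqp1) in DESeq2 and in edgeR without the filter on low counts. Over all genes these fits gave 1, 52 and 245. The median log2 fold change of the list was -0.022. The water channel Aqp1 was measured at 122, 65.5 and 83.5 CPM in control and 162, 172 and 162 CPM in mutant replicates 1, 2 and 3 (log2 fold change 0.87, SE 0.23, edgeR adjusted p = 0.627, and 0.025 to 0.999 over the alternatives). Aqp1 is also a gene of endothelium and red blood cells, whose 5 markers each, all detected, summed to 90.2 to 190.5 CPM and 19.3 to 172 CPM in control and to 154 to 177 CPM and 118 to 266 CPM in mutant libraries, and their part in it was not tested. Sgk1, the kinase that prolongs the stay of sodium channels and pumps at the membrane, stood at 46.6, 35.8 and 41.0 CPM in control and 61.8, 47.8 and 63.4 CPM in mutant replicates (log2 fold change 0.49, SE 0.18), and lost its unadjusted p under 0.05 without control 2, without mutant 3 and with library totals alone. Nfat5, the master regulator of the response to high osmolarity, had a log2 fold change of -0.073 (SE 0.20). The other tested genes of osmolyte uptake, osmolyte synthesis and osmotic stress were Akr1b3 (log2 fold change -0.098, SE 0.19), Slc6a6 (0.17, SE 0.21), Slc6a12 (-0.27, SE 0.19) and Hspa4l (-0.47, SE 0.30). Slc6a12, at 94.5, 90.0 and 85.3 CPM in control and 83.0, 56.1 and 84.6 CPM in mutant replicates 1, 2 and 3, and Hspa4l, at 7.28, 6.66 and 9.22 and at 4.89, 5.63 and 6.16 CPM, were below every control in each mutant library. So was Nr3c2, the mineralocorticoid receptor, at 16.6, 19.2 and 17.3 CPM in control and 7.17, 15.99 and 14.9 CPM in mutant replicates (log2 fold change -0.47, SE 0.29). Of all tested genes 5.96% separate this way, and none of these 3 had an unadjusted p under 0.05.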

How the data were processed

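RNA of whole IVDs was extracted by the authors with Trizol, poly(A)-selected and sequenced in paired ends. The authors deposited raw counts per gene symbol for each library. The submitters' processing notes name STAR 2.5.3a, HTSeq, DESeq2 and GRCm38 (mm10), and the study's methods name HISAT2, StringTie and Ballgown. The strand setting is not given in the sources used here, and HTSeq sets reads that fit more than 1 gene aside as ambiguous. The authors' own table of 1379 genes (fold changes, p-values and scaled counts, none with a p above 0.0499) was not used.

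Counts were analysed in R 4.3.3 with edgeR 4.0.16: TMM scaling, filterByExpr (count minimum 10), and the quasi-likelihood test of 3 mutant against 3 control libraries with Benjamini-Hochberg adjustment over 16152 genes. The SE is the log2 fold change divided by the square root of F. DESeq2 1.42.0 and limma-voom with quality weights (limma 3.58.1), other scalings, no filter, a replicate block and each library left out were alternatives. Wherever limma-voom is named, these weights of the libraries were in use. Rows that name no gene were left out (between 40.4% and 44.2% of reads entered fell on genes). Reads carry no molecular identifiers, so intervals cover counting error only. Of 43472 symbols, 39483 (96.1% of counts) are in GENCODE M21, the source of coordinates and exon lengths. The genes and lists were chosen with earlier results of these data known. Named were the 8 genes, the relatives and the 8 nearest to Fxyd2. Up to 6 genes of each other list with an unadjusted p under 0.05 were named too. Slc12a2, Nfat5, Akr1b3, Slc6a6, Slc6a12, Hspa4l, Nr3c2, Scnn1a, Scnn1b, Scnn1g and Slc4a10 were added after values were seen. Some genes of the pump and of the lists are not reported here.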

Additional observations from a re-analysis of the deposited data

How the results depend on the processing

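The log2 fold change of Fxyd2 lay between -1.48 and -1.17 over 12 alternatives. No reported direction called at an unadjusted p under 0.05 reversed. Library totals alone shifted the median of all genes to -0.13. Genes with an unadjusted p under 0.05 numbered 1164, 1223 with library totals alone, 1476 with limma-voom, 2276 with no filter on low counts, and 618 (without control 3) to 2427 (without control 1) with 1 library left out. Genes with an adjusted p under 0.05 in edgeR numbered 1, 245 with no filter, 52 with DESeq2, 0 with limma-voom and 0 to 31 with 1 library left out (31 without control 1). Of the 8 pump genes, those with an unadjusted p under 0.05 numbered 1, 2 with library totals alone (Fxyd1 added), 3 with limma-voom and 1 to 3 with 1 library left out, beside the counts over all genes just given. They were Fxyd1, Fxyd2 and Fxyd3 without control 1, and Atp1b2 joined Fxyd2 without mutant 3. With an adjusted p under 0.05 there was 1, Fxyd2, with no filter and with DESeq2. Counts at an unadjusted p for the relatives were 0 with limma-voom and 0 to 2 with 1 library left out. For the sodium list, 6 in the reported fit, they were 4 with limma-voom and 5 to 10 with 1 library left out (10 without control 1), and for the osmotic list 1 with library totals alone and 1 to 3 with 1 library left out. With no filter, the genes of these 3 lists with an adjusted p under 0.05 in edgeR were Nkain2 and Nkain3, Scnn1g and Slc13a5, and Aqp1. The cause of these differences was not tested.

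The deviations of same-numbered libraries from their group means had correlations across genes of 0.159, -0.132 and 0.101 for replicates 1, 2 and 3. Libraries of different numbers were not compared in this way, so these values cannot decide whether the numbers pair the samples. The reported fit treats the libraries as unpaired. With the replicate block Fxyd2 had a log2 fold change of -1.32 and 0 genes had an adjusted p under 0.05.

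Depth limits Atp1b1, with 10 to 56 counts per library, and the relatives that were not tested.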

Other observations

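Several scarce genes of ion transport were highest in control 3, the library with the largest share of counts on scarce genes. The epithelial sodium channel subunit Scnn1g had 1, 10 and 43 counts in control replicates 1, 2 and 3 and 0 in each mutant library, and Scnn1b had 4, 8 and 34 against 4, 3 and 1. Neither passed the filter on low counts, and both are named after their values were seen. Without that filter, Scnn1g had an adjusted p under 0.05 in edgeR's test, as one of 245 genes. The bicarbonate carrier Slc4a10 had 4, 25 and 76 counts in control and 16, 10 and 16 in mutant replicates 1, 2 and 3. It too is named after its values were seen. Scnn1a, the subunit that passed the filter, was measured at 4.03 ± 1.26 CPM in control and 4.04 ± 0.973 CPM in mutant libraries (SD, n = 3 each). Atp1b1 went the opposite way in control 3, where it was lowest.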
